A study of Saccharomyces cerevisiae with 11 samples.

Results

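The GD strains of budding yeast (Saccharomyces cerevisiae) were compared with a wild-type control in 4 of the 11 libraries of the series: GD1, GD2 and GD3, whose genotype label is GD, and 1 library named control, whose genotype label is wild-type. The series is about essential genes brought together in clusters, and sequence tags were used to tell synthetic from native gene copies. The labels do not spell out GD, and give no medium, growth phase, parent strain or list of altered genes. Polyadenylated RNA was sequenced, and the authors deposited FPKM, in which fragments are divided by gene length and by the library total. The same table holds 3 SD libraries, whose genotype label is SD, and a second wild-type library, ControlSYN3, stands in a table of its own. Nothing in the labels says that numbered libraries came from separate cultures. The labels also do not say whether the numbers mark different strains. A p-value here covers the spread among these libraries, which may be technical or lie between cultures or strains, and nothing wider. The control is a single library: a state of that culture and a difference of the GD strains cannot be told apart.

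FPKM were divided by a median-of-ratios factor for each library, and levels below are in scaled FPKM. Of 5936 rows, 5899 had a mean of 1 FPKM or more over the table; the lowest mean kept was 1.02 and the highest left out was 0.969. In 4132 of the 5899 rows (70.0%) all 3 GD libraries lay on one side of the control, above it in 1970 (33.4%) and below it in 2162 (36.7%). All 3 lay at least 2-fold above it in 366 rows (6.20%) and at least 2-fold below it in 221 (3.75%), together 587 rows (9.95%). Without scaling the split was 956 above and 3517 below the control. These counts describe the rows that the comparison selects and carry no test. The GD libraries differed among themselves: their median relative SD was 17.6%, against 8.35% among the SD libraries. GD2 lay farthest from the other GD libraries, with Spearman correlations across rows of 0.947 with GD1 and 0.916 with GD3, and was the highest of the 3 in 184 of the 366 rows. Rows of one library are not independent replicates. Against the control the correlation was 0.871 for GD1, 0.827 for GD2 and 0.867 for GD3.

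When only GD and the control entered the limma fit, no row (0.00%) passed an adjusted p of 0.05 (Benjamini-Hochberg over the 5899 rows). The lowest adjusted p was 0.0599, shared by 60 rows, and 1353 rows (22.9%) had an unadjusted p below 0.05. Leaving out 1 GD library changed this: 6 rows were called without GD1, 935 without GD2 and 120 without GD3. With FPKM as deposited 67 rows were called higher and 205 lower. With the SD libraries in the fit, sharing one estimate of the spread, 550 rows (9.32%) were higher and 530 (8.98%) lower in GD than in the control. In all 1080 of these rows (18.3%) the 3 GD libraries lay on one side of the control. Below, "called" refers to this larger fit, whose spread comes in part from the more uniform SD libraries. Differences are given as log2 of scaled FPKM + 1, GD minus control, which understates the change of low genes. Their median over all rows was -0.03, and -0.44 without scaling. Counts of called list members below are to be read beside the 9.32% of all rows called higher and the 8.98% called lower.

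**Figure D1:**
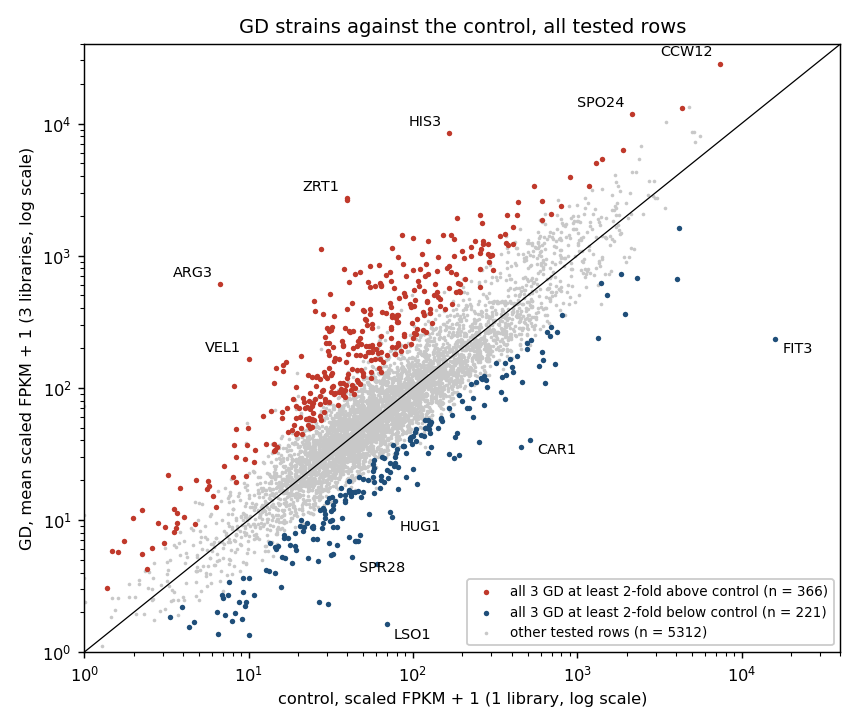
Mean level of each tested row in the 3 GD libraries (vertical axis) against its level in the control (horizontal axis), in scaled FPKM + 1 on log scales, with the line of equality. Rows with every GD library at least 2-fold above the control (366) or below it (221) are coloured; ARG3 and ZRT1 lie far above the line, and FIT3 and LSO1 far below it.

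As background, yeast cells make amino acids and nucleotides when the medium does not supply them, while common laboratory strains need biotin or one of its precursors from outside. The activator Gcn4 turns on amino acid synthesis genes under starvation, Zap1 turns on zinc uptake genes when zinc is scarce, and Aft1 turns on iron uptake genes when iron is scarce. Among genes that averaged 10 scaled FPKM or more over the 4 libraries, the 15 highest called were OLE1, PMA1, VEL1, ALD5, YJR154W, BNA1, ZPS1, LEU1, VHT1, BIO3, SNZ1, HIS3, ARG1, ARG3 and ZRT1, from the smallest difference to the largest. The 15 lowest, from the largest difference to the smallest, were FIT3, LSO1, CYC7, CAR1, SPR28, HUG1, SIT1, DAL80, YDR182W-A, SOL4, CAR2, SUE1, ZEO1, RNP1 and SET4.

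By the medians of the marker lists, GD and the control carried the pattern of haploid alpha cells, though not every a-specific gene was low in the control. The median percentile among the rows of a library was 93.6 in GD and 96.3 in the control for alpha-specific genes. For a-specific genes it was 7.61 and 7.90. MF(ALPHA)1, which encodes the alpha pheromone, stood at 8769, 5239 and 7832 scaled FPKM in GD1, GD2 and GD3, against 5191 in the control. MFA1, an a-factor pheromone gene that a cells express, stood at 14.4, 21.8 and 11.8 in GD1, GD2 and GD3, against 80.3 in the control. MFA1 was lower in GD than in the control (log2 difference -2.30 ± 0.41 SE, limma adjusted p = 0.0142), the 1 called gene of 7 a-specific genes. Its percentile was 9.30 in GD and 62.0 in the control, with 4.79 in ControlSYN3, so it was not low in the control. None of 4 alpha-specific genes was called. RME1, a repressor of meiosis that haploid cells express, was the 1 called gene of 9 haploid-specific genes, at 156, 252 and 129 in the GD libraries against 39.3 in the control.

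Arginine synthesis genes were higher in GD than in the control throughout: all 9 lay above it in every GD library, 8 of them at least 2-fold, and 6 were called. The list median was 3.08 on the log2 scale, beside -0.03 for all rows. The SD libraries stood above the control as well: the median level of the list was 535, 413 and 401 scaled FPKM in SD1, SD2 and SD3, against 30.5 in the control. No gene of this list was called between GD and SD. ARG1, which encodes argininosuccinate synthetase (R64 chromosome XV, 219211 to 220473), stood at 2435, 4061 and 1402 scaled FPKM in GD1, GD2 and GD3, against 38.5 in the control. ARG3, the ornithine carbamoyltransferase gene (chromosome X, 268799 to 269815), stood at 383, 1278 and 162 in GD1, GD2 and GD3, against 5.75 in the control. In both genes GD2 was the highest and GD3 the lowest of the GD libraries, and even GD3 lay far above the control. The log2 differences were 5.93 ± 0.57 for ARG1 and 5.997 ± 0.999 for ARG3 (SE; limma adjusted p = 0.00363 and 0.0117). The order of the libraries held for the list as a whole, with a median of 4.04 in GD2, 2.97 in GD1 and 2.11 in GD3. ARG2, of the first step, had the smallest difference, with 44.9, 96.03 and 33.2 in the GD libraries and 27.6 in the control, and was not called (limma adjusted p = 0.261).

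The bases before the coding start of ARG1 and of LEU4, the isopropylmalate synthase gene of leucine synthesis, are shown as examples of called amino acid synthesis genes with the Gcn4 motif. They are the 300 bases before the start codon in the reference build R64, 5′ to 3′ on the strand of the gene, ARG1 at chrXV:218911-219210 on the plus strand and LEU4 at chrXIV:426755-427054 on the minus strand. Capitals mark the core of the Gcn4 motif, TGACTC, or its reverse complement GAGTCA.
ARG1: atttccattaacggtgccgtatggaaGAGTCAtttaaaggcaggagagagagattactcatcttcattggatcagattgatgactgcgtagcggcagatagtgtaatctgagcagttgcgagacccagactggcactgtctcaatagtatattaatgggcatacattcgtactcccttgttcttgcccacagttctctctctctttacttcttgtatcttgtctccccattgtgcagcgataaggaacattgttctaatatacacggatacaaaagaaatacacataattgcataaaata
LEU4: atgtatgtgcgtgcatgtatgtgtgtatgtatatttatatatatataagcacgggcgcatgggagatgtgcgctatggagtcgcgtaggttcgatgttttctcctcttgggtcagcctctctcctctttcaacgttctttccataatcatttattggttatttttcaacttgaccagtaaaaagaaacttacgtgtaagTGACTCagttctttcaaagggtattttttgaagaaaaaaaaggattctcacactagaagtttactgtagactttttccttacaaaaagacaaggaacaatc
TGACTC, searched on both strands, was in 458 of 5738 such windows of tested rows (7.98%). It was in 88 of the 355 windows (24.8%) of rows with every GD library at least 2-fold above the control and in 9 of 207 (4.35%) of those at least 2-fold below it. By list it was in 8 of 9 windows of arginine synthesis, 5 of 6 of histidine synthesis, 6 of 10 of branched-chain synthesis and 12 of 19 of serine, threonine and glutamate synthesis. A match is a description of these letters and not evidence of binding, and the strains' own promoters were not analysed here.

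Arginine breakdown went the other way. CAR1, arginase, stood at 32.8, 22.4 and 62.6 scaled FPKM in GD1, GD2 and GD3, against 513 in the control. CAR2, ornithine transaminase, stood at 33.1, 13.7 and 38.8 in GD1, GD2 and GD3, against 177 in the control. Both were below the control in every GD library, with log2 differences of -3.80 ± 0.47 and -2.72 ± 0.51 (SE; limma adjusted p = 0.00567 and 0.0164). In SD1, SD2 and SD3 CAR1 stood at 39.6, 33.6 and 36.1 and CAR2 at 51.5, 62.6 and 47.7, and neither was called between GD and SD. PUT1 and PUT2, which carry proline onward to glutamate, were not called against the control. Of 19 genes under nitrogen catabolite repression, DAL80, a GATA repressor of nitrogen use genes, and DAL5, an allantoate permease, were called lower and 17 were not called. The share called lower was 10.5%, near the 8.98% of all rows. DAL80 stood at 7.66, 7.28 and 2.69 in the GD libraries against 44.4 in the control, with the lowest value in GD3. The call of DAL5 was lost without GD1 (adjusted p = 0.0569), SD1 (0.0613) and SD3 (0.0674).

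Branched-chain amino acid genes were higher in GD by a similar amount in all 3 libraries. All 10 tested genes were above the control in every GD library and 9 were called, with list medians of 2.97, 2.98 and 2.85 in GD1, GD2 and GD3. LEU1, isopropylmalate isomerase, stood at 1754, 695 and 1826 scaled FPKM in GD1, GD2 and GD3, against 85.5 in the control. ILV2, the catalytic subunit of acetolactate synthase, stood at 592, 686 and 484, against 58.2 in the control. GD2 was the lowest for LEU1 and the highest for ILV2, and every GD library lay apart from the control (log2 difference 3.92 ± 0.56 for LEU1 and 3.30 ± 0.28 for ILV2, SE; limma adjusted p = 0.00788 and 0.00302). LEU4 reached 976 ± 280.3 in GD (SD, n = 3) against 80.2 in the control. BAT1, the mitochondrial branched-chain aminotransferase, reached 2048 ± 317 against 256, and ILV1, threonine deaminase, 379.9 ± 80.2 against 49.1.

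Histidine synthesis genes were higher in 5 of 6 cases, all 5 of them called. HIS3, imidazoleglycerol-phosphate dehydratase, was the largest, at 5090.0, 15332 and 4905 scaled FPKM in GD1, GD2 and GD3, against 165 in the control. GD2 was the highest by far, and all 3 GD libraries lay well above the control. HIS3 is also a common selection marker. HIS1, the first enzyme of the pathway, stood at 779.9, 1178 and 989.5 in GD1, GD2 and GD3, against 142 in the control, and HIS7, an imidazole glycerol phosphate synthase, at 203, 418 and 290.2 against 55.6. Aromatic synthesis genes were called higher in 7 of 13 cases. ARO3 and ARO4, the DAHP synthases of the first step, reached 1080.0 ± 403 and 634 ± 50.97 in GD (SD, n = 3) against 198 and 52.6 in the control (log2 difference 2.38 ± 0.42 and 3.56 ± 0.24, SE; limma adjusted p = 0.0136 and 0.00182). TRP1, of tryptophan synthesis, was not called, at 95.1, 149.7 and 123 in the GD libraries and 148 in the control. Between GD and SD, 2 of 10 branched-chain, 1 of 6 histidine and 1 of 13 aromatic genes were called higher in GD and none lower.

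Serine, threonine and glutamate family genes were called higher in 12 of 19 cases and lower in none. GLY1, threonine aldolase, stood at 397, 548 and 373 scaled FPKM in GD1, GD2 and GD3, against 72.1 in the control. SER1, phosphoserine aminotransferase, stood at 901, 1028 and 939 against 204, and HOM2, of the shared threonine and methionine branch, at 1070.0, 1836 and 1087 against 176. Each of these lay above the control in every GD library by more than the spread among the GD libraries (limma adjusted p = 0.0042, 0.00632 and 0.00776). GLT1, glutamate synthase, reached 80.9 ± 23.1 in GD (SD, n = 3) against 17.6 in the control. Lysine synthesis had 2 called genes of 8, LYS20 and LYS21, the homocitrate synthases, whose sequences are much alike, so that reads may have been split between them. LYS21 stood at 580.0, 743 and 391.7 in the GD libraries against 75.3 in the control. The call of LYS20 was lost without GD1 (adjusted p = 0.06) and SD3 (0.0529).

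Methionine and sulfate genes split. MET6, methionine synthase, stood at 351, 435 and 536 scaled FPKM in GD1, GD2 and GD3, against 41.9 in the control (log2 difference 3.34 ± 0.31, SE; limma adjusted p = 0.00315). Of 24 genes 7 were called higher, 1 lower and 16 were not called, and in 10 the GD libraries lay on both sides of the control. The list median was 1.25 in GD2, against 0.45 in GD1 and -0.17 in GD3. Against SD, 11 of the 24 genes were called lower in GD and none higher, with a median log2 difference of -1.11, where 21.0% of all rows were called lower. Amino acid permeases were called higher in 7 of 15 cases and lower in 1. HIP1, the histidine permease, reached 118 ± 18.7 in GD (SD, n = 3) against 29.1 in the control, LYP1, the lysine permease, 164 ± 42.3 against 34.6, and DIP5, the glutamate and aspartate permease, 224 ± 56.3 against 45.1 (limma adjusted p = 0.00406, 0.00632 and 0.00763).

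**Figure D2:**
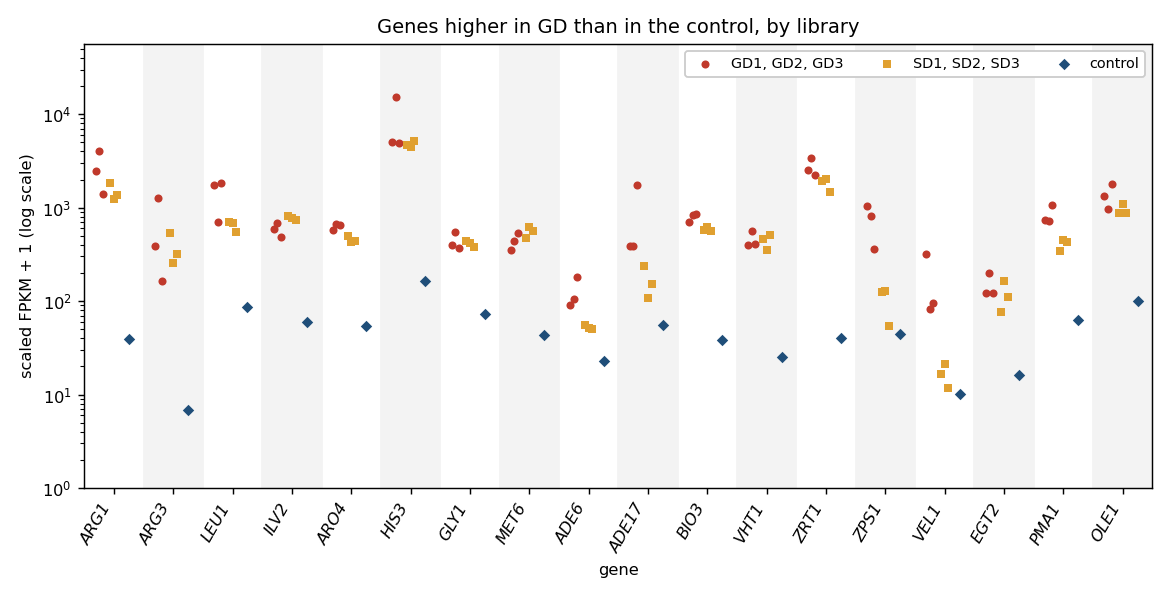
Level in scaled FPKM + 1 (log scale) of 18 genes that were higher in GD than in the control, with GD1, GD2 and GD3 as circles, the 3 SD libraries as squares and the control as a diamond. For each gene every GD library lies above the control, and for ZPS1, VEL1 and PMA1 they also lie above the SD libraries.

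Purine synthesis genes were led by GD3. ADE17, which carries out the last steps to inosine monophosphate, stood at 391.7, 386 and 1743 scaled FPKM in GD1, GD2 and GD3, against 54.1 in the control. ADE6, an earlier enzyme of the pathway, stood at 90.3, 104 and 178 in GD1, GD2 and GD3, against 21.8 in the control. In both genes all GD libraries were above the control and GD3 was well above GD1 and GD2. The list median was 2.79 in GD3, against 1.43 in GD1 and 1.76 in GD2. Of 15 genes 6 were called higher and none lower, and 13 lay above the control in every GD library. ADE12, adenylosuccinate synthetase, reached 459 ± 140.0 in GD (SD, n = 3) against 102 in the control (limma adjusted p = 0.0107). The call of ADE17 was lost without GD1 (adjusted p = 0.0543), SD1 (0.057), SD2 (0.0581) and SD3 (0.0699). ADE1 and ADE2 stood at 459.9, 489.5 and 1286 and at 194, 194 and 560.3 in GD1, GD2 and GD3, against 170.0 and 80.3 in the control, and were not called. The list also stood above the SD libraries, with 13 of 15 genes called higher in the test of GD against SD, where 22.2% of all rows were higher in GD and 21.0% lower.

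Biotin genes were above the control in GD, with log2 differences from 1.59 to 4.38. All 7 lay above the control in every GD library and 6 were called. The SD libraries stood above the control as well: the median level of the list was 463, 354 and 502 scaled FPKM in SD1, SD2 and SD3, against 63.0 in the control. Between GD and SD 1 of the 7 was called, higher in GD. BIO3, of biotin synthesis, stood at 701, 838 and 855 scaled FPKM in GD1, GD2 and GD3, against 37.3 in the control. VHT1, the biotin transporter at the plasma membrane, stood at 394, 566 and 403 against 23.99, and BIO4, dethiobiotin synthetase, at 665, 794 and 807 against 71.8. For these 3 genes the GD libraries lay many times above the control (log2 difference 4.38 ± 0.25, 4.17 ± 0.32 and 3.37 ± 0.26, SE; limma adjusted p = 0.00137, 0.00237 and 0.00237). BIO2, biotin synthase, BIO5, a transporter of a biotin precursor, and BPL1, the ligase that attaches biotin to enzymes, reached 702 ± 221, 355 ± 85.1 and 124 ± 5.31 in GD (SD, n = 3), against 89.4, 74.00 and 30.7 in the control. VHR1, which activates VHT1 and BIO5, was not called, at 164, 379 and 113 in the GD libraries and 62.97 in the control. In vitamin B6 and thiamine metabolism 6 of 16 genes were called higher. SNZ1, of vitamin B6 synthesis, stood at 767, 2309 and 295 in GD1, GD2 and GD3, against 26.4 in the control, with GD2 the highest, and its call was lost without GD1 (adjusted p = 0.0541). TPN1, the vitamin B6 importer, reached 119.8 ± 29.2 in GD (SD, n = 3) against 24.8 in the control (limma adjusted p = 0.00532).

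The zinc regulon held the gene with the largest positive difference of all rows. ZRT1, the high-affinity zinc transporter (R64 chromosome VII, 20978 to 22108), stood at 2522, 3420.4 and 2228 scaled FPKM in GD1, GD2 and GD3, against 38.8 in the control, a log2 difference of 6.07 ± 0.37 (SE; limma adjusted p = 0.00137). Of 16 zinc genes, 13 lay above the control in every GD library, and 11 were called higher and none lower. The 300 bases before its start codon (chrVII:20678-20977, plus strand, R64) are shown because it had the largest difference, with capitals on the Zap1 consensus, ACCTT and AAGGT parted by any 1 base.
ZRT1: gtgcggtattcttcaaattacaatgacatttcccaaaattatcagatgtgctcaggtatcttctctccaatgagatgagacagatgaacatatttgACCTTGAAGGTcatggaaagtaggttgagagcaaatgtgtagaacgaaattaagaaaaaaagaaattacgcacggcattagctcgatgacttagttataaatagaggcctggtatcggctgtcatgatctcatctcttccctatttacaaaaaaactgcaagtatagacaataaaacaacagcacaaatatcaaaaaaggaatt
This motif, which reads the same on both strands, was in 6 of 5738 windows (0.105%), of which 3 belonged to the zinc list, ZRT1, ZRG17 and MCD4. ZRG17, of zinc transport into the endoplasmic reticulum, and MCD4, of membrane anchor synthesis, were not called (limma adjusted p = 0.101 and 0.197), with log2 differences of 0.76 and 0.75.

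ZAP1, the activator itself, stood at 238, 211 and 144 scaled FPKM in GD1, GD2 and GD3, against 42.4 in the control. ZPS1, a cell surface protein of zinc-limited cells, stood at 1028, 808 and 357, against 43.4 in the control. VEL1, a gene of unknown function, stood at 315, 82.1 and 95.1, against 9.02 in the control. All 3 were above the control in every GD library, and VEL1 was far higher in GD1 than in GD2 and GD3. IZH1, a membrane protein of zinc metabolism, was even, at 407, 418 and 405 against 72.4, and ZRC1, which moves zinc into the vacuole, reached 235 ± 13.95 in GD (SD, n = 3) against 98.5 (limma adjusted p = 0.00409 and 0.0101). ADH4, an alcohol dehydrogenase made in zinc-limited cells, stood at 1212, 479 and 902 in GD1, GD2 and GD3, against 119 in the control, and its call was lost without GD1 (adjusted p = 0.0511). FET4, a low-affinity transporter of iron, zinc and copper, was the 1 called higher gene of the iron list, at 304, 222 and 279.9 against 47.9 (limma adjusted p = 0.00714). COT1, a vacuolar zinc and cobalt transporter, and ZRG8 were not called, at 142, 104 and 80.8 and 22.6, 23.2 and 17.2 in the GD libraries against 119 and 29.00. In GD against SD, 8 of the 16 genes were higher in GD and 1 lower, among them ADH4, ZPS1 and VEL1 with log2 differences of 3.13, 2.80 and 3.08. ZRT1 was not called between GD and SD (log2 difference 0.58, limma adjusted p = 0.112).

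Iron uptake genes held the largest negative differences. FIT3, a cell wall mannoprotein that helps retain siderophore iron (R64 chromosome XV, 1060441 to 1061055), stood at 384, 166 and 152 scaled FPKM in GD1, GD2 and GD3, against 15996 in the control. LSO1, a small protein gene induced when iron is scarce (chromosome X, 448477 to 448758), stood at 0.460, 0.664 and 0.765, against 68.3 in the control. Both lay far below the control in every GD library (log2 difference -6.22 ± 0.83 and -5.41 ± 0.32, SE; limma adjusted p = 0.00632 and 0.00137), and LSO1 was under 1 scaled FPKM in all 3. Both were low in SD1, SD2 and SD3 too, FIT3 at 149, 545 and 156 and LSO1 at 0.901, 1.19 and 0.713, and neither was called between GD and SD. ENB1, the enterobactin transporter, stood at 23.95, 27.8 and 18.1 in the GD libraries against 98.5 in the control, and FRE3, a ferric reductase, at 16.4, 17.9 and 11.2 against 43.6. SIT1, a siderophore transporter, stood at 57.4, 18.5 and 14.4 against 189, with GD1 the highest of the GD libraries. The call of SIT1 was lost without SD1 (adjusted p = 0.0629), SD2 (0.0548) and SD3 (0.0681). The windows of FIT3 (chrXV:1061056-1061355, minus strand) and LSO1 (chrX:448759-449058, minus strand), both in R64, are shown for these largest negative differences, with capitals on the Aft1 core TGCACCC or its reverse complement GGGTGCA.
FIT3: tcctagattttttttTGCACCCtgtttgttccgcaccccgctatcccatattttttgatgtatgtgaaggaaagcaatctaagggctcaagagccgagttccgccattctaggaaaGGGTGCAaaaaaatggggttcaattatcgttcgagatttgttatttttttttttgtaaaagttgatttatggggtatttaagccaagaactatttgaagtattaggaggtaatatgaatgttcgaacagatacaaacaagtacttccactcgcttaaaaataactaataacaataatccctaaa
LSO1: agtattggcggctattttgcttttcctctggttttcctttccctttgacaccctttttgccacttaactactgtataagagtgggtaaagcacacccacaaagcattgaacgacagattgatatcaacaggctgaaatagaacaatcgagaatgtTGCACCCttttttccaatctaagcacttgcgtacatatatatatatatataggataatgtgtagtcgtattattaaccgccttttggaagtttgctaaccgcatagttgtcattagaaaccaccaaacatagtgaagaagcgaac
TGCACCC, searched on both strands, was in 74 of 5738 windows (1.29%) and in 17 of the 32 windows of the iron list (53.1%), called or not. The iron list did not move as one. Of 32 genes 5 were called lower and 1 higher, and 26 were not called. FET3, the ferroxidase of high-affinity uptake, stood at 249, 81.1 and 81.6 in GD1, GD2 and GD3, against 351 in the control, while FTR1, its partner permease, stood at 241, 186 and 194 against 95.1. FIT2, another mannoprotein of this family, stood at 1069.8, 125 and 86.99 against 1391, so that GD1 was near the control and GD2 and GD3 far below it. AFT1 stood at 104, 77.5 and 57.9 in the GD libraries and 83.03 in the control (limma adjusted p = 0.845).

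**Figure D3:**
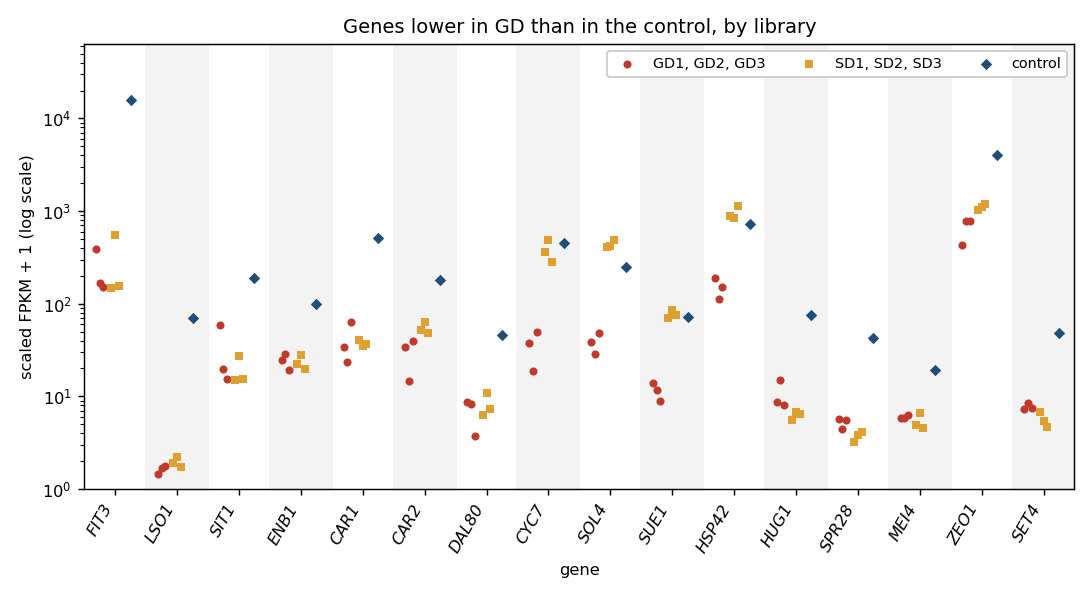
Level in scaled FPKM + 1 (log scale) of 16 genes that were lower in GD than in the control, with GD1, GD2 and GD3 as circles, the 3 SD libraries as squares and the control as a diamond. Every GD library lies below the control for each gene. For CYC7, SOL4, SUE1 and HSP42 the SD libraries do not share the low GD level.

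Cell wall genes were often called higher. Of 38 cell wall genes 29 lay above the control in every GD library, 16 were called higher and 1 lower, with a median log2 difference of 1.13. EGT2, a cell wall enzyme of mother and daughter cell separation, stood at 121, 201 and 122 scaled FPKM in GD1, GD2 and GD3, against 15.1 in the control. EGT2 was called (limma adjusted p = 0.00776). PIR1 and SUN4, a wall protein cross-linked to glucan and a septation protein, reached 608 ± 84.6 and 206 ± 27.3 in GD (SD, n = 3) against 134 and 51.1 in the control. TIR1, a mannoprotein of cold and hypoxic cells, was the 1 called lower, at 11.7, 14.1 and 19.3 in the GD libraries against 56.9 in the control. CCW12, an abundant wall mannoprotein, stood at 29639.8, 25587 and 30002 against 7444, and its call was lost without GD1 (adjusted p = 0.0522), SD1 (0.0613) and SD3 (0.0681). PMA1, the plasma membrane proton pump, stood at 729, 727 and 1071 in GD1, GD2 and GD3, against 61.6 in the control, and OLE1, the fatty acid desaturase, at 1327, 957 and 1799 against 99.9 (limma adjusted p = 0.00302 and 0.00409). In ergosterol synthesis 9 of 25 genes were called higher, with ERG2, sterol isomerase, at 333, 319 and 411 in the GD libraries against 116 in the control.

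Most ribosomal protein genes lay above the control in every GD library, and few were called. Of 82 ribosomal protein genes of the large subunit, 66 stood above the control in every GD library and none below, but 6 were called (7.32%), under the 9.32% of all rows. Of 55 small-subunit genes 43 lay above it and 1 below, with 3 called. The large-subunit median was 1.58 in GD3, against 0.71 in GD1 and 0.45 in GD2. RPL3 and RPL15A stood at 1491, 1177 and 2625 and at 2003, 1961 and 3628 scaled FPKM in GD1, GD2 and GD3, against 264 and 437 in the control; RPL15A has a close paralog, so reads may have been split. Against SD, 76 of 82 and 54 of 55 were higher in GD. Of 43 ribosome biogenesis genes 26 lay above the control in every GD library and 9 below it, 7 were called higher (16.3%), and 38 were higher than in SD. RPA135, a subunit of RNA polymerase I, reached 89.7 ± 18.9 in GD (SD, n = 3) against 22.8 in the control, and UTP20, a component of the small subunit processome, 32.6 ± 3.28 against 9.94 (limma adjusted p = 0.00823 and 0.00849). The median of the biogenesis list was 0.27 with scaling and -0.14 without it. In glycolysis 13 of 20 genes lay above the control in every GD library and 1 below it, 5 were called higher and none lower, and its median was 1.12, 0.42 and 1.65 in GD1, GD2 and GD3. CDC19, pyruvate kinase, stood at 6367, 4302 and 8362 against 1891, and its call was lost without GD1 (adjusted p = 0.104), SD1 (0.0945), SD2 (0.0706) and SD3 (0.104).

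**Figure D4:**
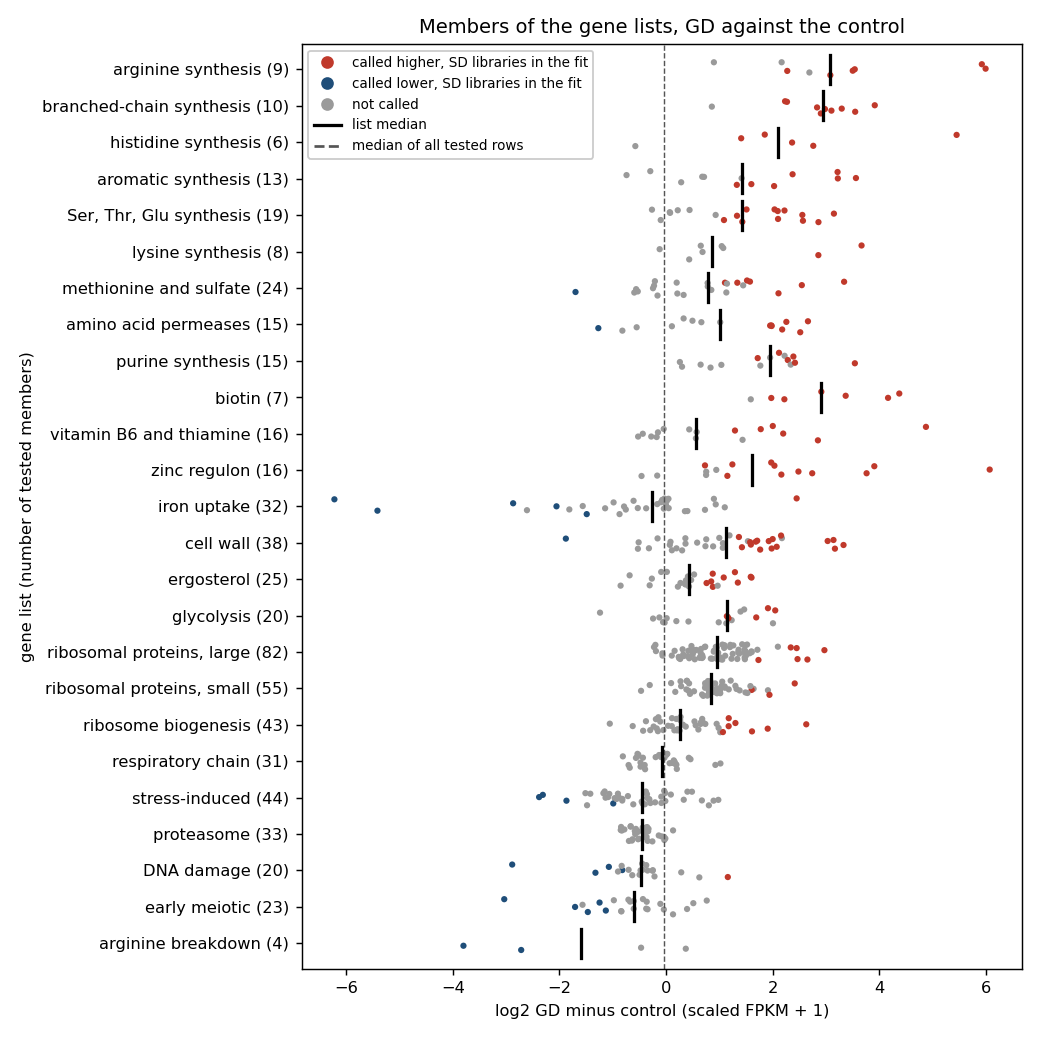
Log2 difference of GD minus the control for each tested member (points) of 25 gene lists, with the list median (black bar) and the median of all tested rows (dashed line, at -0.03). Red and blue points were called higher and lower in the fit with the SD libraries. The list labelled early meiotic also holds sporulation genes, among them SPR28. Amino acid, biotin and zinc lists lie to the right, and arginine breakdown, with a median of -1.59, to the left.

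The lower genes came from several pathways. CYC7, the minor form of cytochrome c, stood at 36.96, 17.5 and 48.7 scaled FPKM in GD1, GD2 and GD3, against 455 in the control. SUE1, which acts in the breakdown of unstable cytochrome c, stood at 12.9, 10.6 and 7.87 against 71.6, and SOL4, a phosphogluconolactonase, at 37.98, 27.5 and 47.8 against 251. All 3 lay below the control in every GD library (limma adjusted p = 0.00792, 0.00329 and 0.00451) and were also lower in GD than in SD, with differences of -3.49, -2.77 and -3.53 on the log2 scale. Respiratory chain genes as a list were not lower: none of 31 was called, and the median was -0.08, or -0.49 without scaling. Of 44 stress-induced genes 25 lay below the control in every GD library and 5 above it, and 4 were called lower (9.09%, near the 8.98% of all rows). HSP42, a small heat shock protein, stood at 190.4, 111 and 150.2 in GD1, GD2 and GD3, against 733 in the control (log2 difference -2.31 ± 0.36, SE; limma adjusted p = 0.00957). Against SD, 39 of the 44 were lower in GD and 1 higher. All 33 proteasome genes went uncalled, although 26 lay below the control in every GD library, with a median of -0.45, which was -0.87 without scaling.

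Some genes of DNA damage and meiosis were called lower in GD. HUG1, an inhibitor of ribonucleotide reductase made after DNA damage, stood at 7.61, 13.97 and 7.02 scaled FPKM in GD1, GD2 and GD3, against 73.8 in the control (log2 difference -2.89 ± 0.37, SE; limma adjusted p = 0.00584). SML1, another inhibitor of ribonucleotide reductase, was an abundant transcript, at 771, 636 and 899 in the GD libraries against 1602 in the control. MAG1, a DNA repair glycosylase, stood at 57.5, 34.98 and 53.9 against 121, and RFX1, a repressor of damage-induced genes, at 16.1, 11.8 and 14.8 against 25.8 (limma adjusted p = 0.0458, 0.0216 and 0.049 for SML1, MAG1 and RFX1). The call of SML1 was lost without GD1 (adjusted p = 0.1), SD1 (0.106), SD2 (0.0847) and SD3 (0.111), that of MAG1 without SD3 (adjusted p = 0.0527) and that of RFX1 without GD1 (adjusted p = 0.0714), GD3 (0.0577), SD1 (0.0847), SD2 (0.0867) and SD3 (0.0902). Of 20 damage genes these 4 were called lower and 1 higher, and RNR2 and RNR4, the small subunits of ribonucleotide reductase, were not called, at 238, 151 and 296 and 587, 468 and 717 in the GD libraries against 311 and 740.1 in the control. SPR28, a septin of sporulation, stood at 4.67, 3.42 and 4.59 in GD1, GD2 and GD3, against 41.6 in the control. MEI4, which acts in meiotic recombination, stood at 4.84, 4.82 and 5.24 against 18.4, and IME1, the activator of meiotic entry, at 22.1, 18.4 and 16.99 against 42.8. Of 23 genes of meiosis and sporulation 17 lay below the control in every GD library. Of the 23, 5 were called lower, 21.7% beside the 8.98% of all rows (limma adjusted p = 0.00315, 0.0116 and 0.0115 for the genes named).

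Of the remaining genes at either end, BNA1, of nicotinamide adenine dinucleotide synthesis, stood at 1084, 1499.5 and 843 scaled FPKM in GD1, GD2 and GD3, against 74.1 in the control. ALD5, a mitochondrial aldehyde dehydrogenase, stood at 499, 927 and 460.4 against 39.7, and the uncharacterised YJR154W at 327, 342 and 464 against 24.4. Each was several times above the control in every GD library (limma adjusted p = 0.00363, 0.00409 and 0.00237). At the lower end ZEO1, a membrane-associated protein of the cell integrity pathway, stood at 434, 773 and 777 against 4042, SET4, a SET domain protein, at 6.21, 7.56 and 6.47 against 46.7, and YDR182W-A at 6.07, 7.11 and 4.52 against 45.4 (limma adjusted p = 0.00889, 0.00409 and 0.00315). RNP1, an RNA-binding protein, stood at 3.33, 12.4 and 3.71 against 39.8, with GD2 above the other GD libraries, and its call was lost without GD1 (adjusted p = 0.0751), SD1 (0.061), SD2 (0.0534) and SD3 (0.0674). The called genes of the highest level outside the lists were SPO24, TEF1 and MPC2. SPO24, a small protein gene, stood at 12865, 15882 and 6620.2 against 2141, and MPC2, a mitochondrial pyruvate carrier subunit, at 2945, 5212 and 1877 against 549. Both calls were lost when single libraries were left out, that of SPO24 without GD1 (adjusted p = 0.0736), SD1 (0.0658), SD2 (0.0548) and SD3 (0.072) and that of MPC2 without GD1 (adjusted p = 0.0717), SD1 (0.0613), SD2 (0.0514) and SD3 (0.0674). TEF1, elongation factor 1 alpha, shares nearly all its coding sequence with TEF2, so its value is uncertain.

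The second wild-type library, ControlSYN3, shows how these genes stood in other wild-type cells. Its table was normalized separately, so levels were compared only by percentile among the rows of a library, with no test. Over the 5893 rows in both tables, the percentile in ControlSYN3 lay nearer to the GD median than to the control in 3534 (59.97%). The share was 74.0% (271 of 366) in rows with every GD library at least 2-fold above the control and 65.5% (144 of 220) in those at least 2-fold below it. The 2-fold rows were chosen because the control stood apart from GD. In all rows the median of the GD libraries was set against a single control library. Either can place another library nearer to GD, so these shares alone do not show a likeness of ControlSYN3 to GD. Lists differed in the share of genes nearer to GD. For arginine synthesis the median percentile was 90.9 in GD and 23.9 in the control, with 96.9 in ControlSYN3, and all 9 genes were nearer to GD. The same held for all 13 aromatic and all 6 histidine genes, and for 9 of 10 branched-chain genes. For the zinc list it was 84.6 in GD and 49.5 in the control, with 54.8 in ControlSYN3, and 4 of 16 genes were nearer to GD. The percentile of ZRT1 was 99.4 in GD and 32.4 in the control, with 46.99 in ControlSYN3. For the biotin list it was 91.2 in GD and 53.1 in the control, with 65.9 in ControlSYN3, and 3 of 7 genes were nearer to GD. The percentile of FIT3 was 80.5 in GD and 99.99 in the control, with 80.4 in ControlSYN3, and that of CYC7 was 31.03 in GD and 93.6 in the control, with 74.98 in ControlSYN3. By percentile, the genes of these 4 amino acid pathways and FIT3 in ControlSYN3 were mostly on the side of the GD strains. Most zinc genes and CYC7 were on the side of the control. These lists and genes were chosen with results known, so the same caution holds for them.

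**Figure D5:**
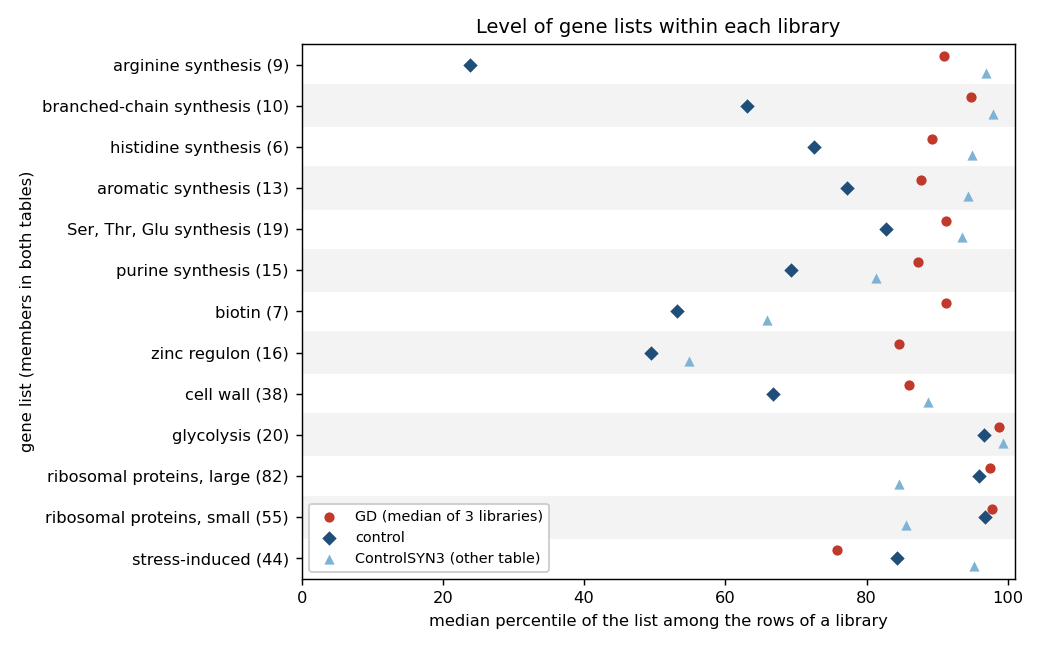
Median percentile of 13 gene lists among the rows of a library (horizontal axis), for GD (median of 3 libraries, circles), the control (diamonds) and ControlSYN3 (triangles). Arginine synthesis is high in GD and ControlSYN3 and at 23.9 in the control, while the zinc list is high in GD and lower in both wild-type libraries.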

How the data were processed

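Polyadenylated RNA was purified on oligo-dT beads, per the labels' protocols. The authors deposited FPKM values, per the file headers, in 2 tables of 5936 and 5931 rows. The submitters' processing notes name RSEM, Bowtie2, BWA and the build R64, with no versions or roles. The sources used here give neither the use of strand in counting nor the treatment of reads from synthetic copies. Genes that overlap or lie antisense to another may therefore share reads. Whole fragments could not be recovered from low values (mean distance to a whole number 0.212 to 0.238), so depth is unknown and no counting interval is given. In the second table, 3 columns headed with other names than the samples were not used.

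Rows were matched to R64 by gene number (5774 of 5936). Libraries were scaled by median of ratios over the 7 libraries of the first table, and rows with a mean of at least 1 FPKM were kept. Tests used limma 3.58.1 in R 4.3.3, with trend and robust estimates on log2(scaled FPKM + 1), on GD and control (2 residual degrees of freedom) and, as an alternative, with SD (4), with Benjamini-Hochberg adjustment over 5899 rows at 0.05. The lone control was assumed to vary like the strains. An exact permutation test of 3 against 1 cannot go below 0.25. The steps were tested on simulated data.

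The members and lists (37) were chosen with earlier results of these data known. Genes were named by a rule: the 15 highest and 15 lowest called with a mean of at least 10, the 3 lowest-p called and the 4 most abundant members of lists, every member of the arginine, biotin, zinc and iron lists and of the strain markers, and the 3 most abundant called genes outside lists. It asked for calls in the fit of GD and control, which made none, so the calls of the fit with SD were used, a choice made after values were seen. The text keeps to part of the genes the rule gives. Genes without a row in the table, among them LEU2, HIS4 and LYS2, were not analysed here.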

Additional observations from a re-analysis of the deposited data

Results flagged for a closer look

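Of the 91 genes described with values that were called against the control, 33 also differed between GD and the SD strains of the same table, tested in the same limma fit with 3 libraries in each group. In that test 22.2% of all rows were called higher in GD than in SD and 21.0% lower, so the count itself does not set these genes apart. The values below are log2 differences of GD minus SD, so the effect against the control was not the same in both strain groups. As both are set against 1 control library, only the direct test of GD against SD is given.

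The genes lower in GD than in SD were SOL4 (-3.53), CYC7 (-3.49), SUE1 (-2.77), HSP42 (-2.68), RME1 (-1.34), MET17 (-1.21), MAG1 (-1.13), HXT2 (-1.09), MDH2 (-1.03), YDR182W-A (-0.90), MDH3 (-0.85), HXT3 (-0.76), IME1 (-0.61) and DAL5 (-0.43). CYC7 stood at 36.96, 17.5 and 48.7 scaled FPKM in GD1, GD2 and GD3, against 357, 489.8 and 283 in SD1, SD2 and SD3. RME1 stood at 156, 252 and 129 in the GD libraries, against 430.2, 435 and 439 in the SD libraries, so that both lay above the control.

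Those higher in GD were ADH4 (3.13), VEL1 (3.08), ZPS1 (2.80), ADE17 (2.03), RPL15A (1.52), RPL3 (1.35), CDC19 (1.26), ADE6 (1.19), FET4 (1.16), ERG2 (1.14), ADE12 (1.08), PMA1 (1.05), CCW12 (0.83), RPA135 (0.77), SER1 (0.72), SUN4 (0.65), IZH1 (0.62), BPL1 (0.56) and UTP20 (0.54). ADH4 stood at 1212, 479 and 902 scaled FPKM in GD1, GD2 and GD3, against 72.8, 141 and 73.2 in SD1, SD2 and SD3, and PMA1 at 729, 727 and 1071 in the GD libraries, against 339, 444 and 424 in the SD libraries. No group held more than 3 libraries, so single libraries were not tested for standing apart.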

How the results depend on the processing

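In the fit of GD and the control alone, no row was called with a pseudocount of 0.1, with no minimum, with a minimum of 10 FPKM, with a 2-fold minimum change, or with scaling over GD and control only, an alternative chosen after seeing the data. Without the trend and robust estimates 3 rows were called. With FPKM as deposited 272 were called, 57 of them list members, and 3 list members were called without the trend. Leaving out each GD library in turn gave 6 to 935 rows and 4 to 179 list members. With the SD libraries in the fit 1080 rows and 174 list members were called, and leaving out each library in turn there, chosen after seeing the data, gave 489 to 1897 rows and 104 to 278 list members: 560 and 107 without GD1, 1897 and 278 without GD2, 1234 and 194 without GD3, 562 and 123 without SD1, 706 and 136 without SD2, and 489 and 104 without SD3. With a replicate block on the number in the name, in the fit with SD, 131 rows and 45 list members were called. The labels do not say that equal numbers mark a shared culture or day, and same-numbered GD and SD libraries deviated from their group means with correlations of -0.129, -0.179 and -0.167, so the numbers were not taken as pairs. The count of GD against SD was 2548, 1945 with the replicate block, and 1263 to 3429 when each library was left out. Rows on one side of the control numbered 3958 to 5066 over the alternatives. Rows at least 2-fold away numbered 531 to 824, with 198 above and 612 below in FPKM as deposited. AFT1 changed sign without GD3, at 0.11 (down to -0.31 when GD1 was left out), and with the replicate block, at 0.053, and COT1 without GD3, at 0.030 (down to -0.37 without GD1), in both fits. URA3 changed sign in FPKM as deposited, at -0.055. These genes were not called. No other gene described with values in the text changed sign in an alternative. PUT1, PUT2 and TEF1, named without values, were not part of that check. Depth is unknown, and a single control library limits every comparison.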

Other observations

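Hexose transport genes and those of the tricarboxylic acid and glyoxylate cycles showed no common direction in GD against the control. Of 15 hexose transport genes 1 was called higher and 2 lower (6.67% and 13.3%, beside 9.32% and 8.98% of all rows). HXT2, a high-affinity glucose transporter, stood at 17.2, 17.99 and 12.5 scaled FPKM in GD1, GD2 and GD3, against 40.1 in the control, and HXT3, a low-affinity one, at 998, 869.9 and 1141 against 302. The call of HXT2 was lost without GD1 (adjusted p = 0.0717) and SD3 (0.0743), and that of HXT3 without GD1 (adjusted p = 0.0575) and SD1 (0.0545). Some transporter genes of this family are much alike in sequence and can share reads. Whether this affected HXT2 and HXT3 was not tested. MDH2, the cytosolic malate dehydrogenase, stood at 73.7, 66.99 and 105 in the GD libraries against 365 in the control, and IDP1, the mitochondrial isocitrate dehydrogenase that makes NADPH, at 658, 734 and 378 against 108 (limma adjusted p = 0.00778 and 0.0115). Of the 25 tricarboxylic acid and glyoxylate cycle genes 2 were called higher (IDP1 and the peroxisomal malate dehydrogenase MDH3, at 296, 275 and 373 in the GD libraries against 159.9 in the control), 1 lower (MDH2) and 22 not at all. Among lists not described above, 1 of 15 phosphate genes was called higher and 1 lower, 2 of 16 hypoxic and heme genes were called higher and 2 lower, 3 of 15 phospholipid and inositol genes were called higher, and 1 of 10 histone genes was called lower. Over all rows 9.32% were called higher and 8.98% lower. The phosphate shares (6.67% each way) and the hypoxic and heme shares (12.5% each way) lay near these.

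Of 7 genes often used as strain markers 6 lay above the control in every GD library and 3 were called higher, namely HIS3, LYP1 and MET17. MET17, of homocysteine synthesis, stood at 443, 833 and 344 scaled FPKM in GD1, GD2 and GD3, against 116 in the control. URA3, a uracil synthesis gene, stood at 1166, 1232 and 1567 scaled FPKM in GD1, GD2 and GD3, against 1020.5 in the control, and CAN1, the arginine permease, at 95.3, 152 and 96.7 against 79.03, and neither was called. Essential genes of chromosome III had a median of 40.1, 37.8 and 35.6 scaled FPKM in GD1, GD2 and GD3, against 28.6 in the control. Gene by gene the list hardly differed from the control, with a median log2 difference of 0.045 beside -0.03 for all rows, and -0.37 without scaling. Of these 13 genes 6 lay above the control in every GD library and 4 below it, and 1 was called lower. Against SD, 12 of the 13 were called lower in GD, with a median log2 difference of -2.25, where 21.0% of all rows were called lower. Shorter genes had lower differences: the median log2 difference was -0.26 in the 1436 shortest of the matched rows and 0.10 in the 1433 longest. Its part in the results was not tested.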
